A study of Mus musculus with 14 samples.

Results

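The messenger RNAs of 10 inflammatory and regulatory cytokines were followed in cultured mouse macrophages: Il1a, Il1b, Il1rn, Il18, Il6, Osm, Lif, Tnf, Il10 and Tgfb1. They were chosen by name, as the genes of the interleukin-1 group, the gp130 ligands, Tnf and the regulatory cytokines Il10 and Tgfb1, and they are 10 of the 25239 gene symbols in the deposited table. RNA was sequenced from bone marrow-derived macrophages in 14 libraries of 4 groups. Ezh2 fl/fl;LysM-Cre+/- macrophages (KO) had 3 libraries after 24 h in medium conditioned by the mouse hepatoma line Hepa1-6 (CM) and 3 libraries after 24 h in complete DMEM (control medium). Macrophages of littermates, labelled WT, had 4 libraries in CM and 4 in control medium. Ezh2 encodes the histone methyltransferase of the polycomb repressive complex that places the repressive H3K27 methyl mark.

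Cre under the lysozyme M promoter acts in myeloid cells and their precursors, and the alleles of the WT littermates are not given in the sources used here. Marrow of every group was grown for 7 to 10 days in DMEM that held 20% medium of L929 cells, a source of macrophage colony-stimulating factor, and 10% fetal bovine and 5% horse serum. No medium conditioned by other cells was compared with the Hepa1-6 medium. Nothing in the labels says that the libraries of a group are separate animals, and the p-values measure only the spread between these libraries, which may be technical.

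IL-1α and IL-1β signal through the same receptor, and the product of Il1rn is the antagonist that occupies this receptor without activating it. IL-1β and IL-18 are made as inactive precursors that inflammasomes cleave, so their mRNA level is not the level of active cytokine. IL-6, oncostatin M and LIF share the gp130 receptor subunit and activate STAT3, whereas IL-10 and TGF-β1 restrain inflammatory macrophages, and IL-10 also acts through STAT3. Many macrophage cytokine promoters carry sites for NF-κB, AP-1 and C/EBP factors close to the start of transcription.

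The promoter windows of Il1a and Tnf, called in CM in both genotypes, of Il6, called in CM in WT, and of Il1rn, called in KO in control medium, are printed to show how different the sequences just upstream of these genes are. Each is the 250 bases before a RefSeq transcript start on GRCm38.p6, in the direction of transcription. Capitals mark 4 motifs: an NF-κB-like GGNNTTTCC, an AP-1-like TGANTCA and a C/EBP-like TTGNGNAA on either strand, and TATAAA on the transcribed strand.
Il1a, chr2:129309973-129310222, minus strand: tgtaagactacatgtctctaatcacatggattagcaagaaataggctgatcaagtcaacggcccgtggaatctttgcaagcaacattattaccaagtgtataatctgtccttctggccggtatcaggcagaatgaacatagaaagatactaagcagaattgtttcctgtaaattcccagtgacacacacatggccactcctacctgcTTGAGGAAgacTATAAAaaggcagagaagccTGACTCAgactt
Il6, chr5:30012864-30013113, plus strand: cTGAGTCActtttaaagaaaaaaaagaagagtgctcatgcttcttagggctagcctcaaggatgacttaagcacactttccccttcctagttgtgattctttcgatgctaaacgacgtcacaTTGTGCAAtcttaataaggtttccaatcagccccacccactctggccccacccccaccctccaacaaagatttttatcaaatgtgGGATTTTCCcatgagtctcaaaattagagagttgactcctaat
Tnf, chr17:35202008-35202257, minus strand: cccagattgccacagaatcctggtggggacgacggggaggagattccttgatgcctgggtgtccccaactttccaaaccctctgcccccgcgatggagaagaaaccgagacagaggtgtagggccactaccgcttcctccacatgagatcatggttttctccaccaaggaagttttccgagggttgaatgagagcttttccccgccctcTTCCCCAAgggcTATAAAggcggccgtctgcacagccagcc
Il1rn, chr2:24345041-24345290, plus strand: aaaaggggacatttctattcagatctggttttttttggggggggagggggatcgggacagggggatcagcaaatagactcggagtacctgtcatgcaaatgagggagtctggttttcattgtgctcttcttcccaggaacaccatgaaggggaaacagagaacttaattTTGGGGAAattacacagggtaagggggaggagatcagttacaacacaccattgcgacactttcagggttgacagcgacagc

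The Il1a window held 3 of these motifs within its last 43 bases, a TTGNGNAA, a TATAAA and a TGANTCA, none overlapping. The Il6 window held a GGNNTTTCC at 43 to 35 bases before the start, a TTGNGNAA and, at its far end, a TGANTCA. The Tnf window held a TATAAA and, on the other strand, a TTGNGNAA, and neither of the remaining 2 motifs. The Il1rn window stands before the first exon that had the most counts of its own, and held a TTGNGNAA. Over all 32817 RefSeq windows of this length, 4.93% held GGNNTTTCC, 6.75% TGANTCA, 11.7% TTGNGNAA and 7.60% TATAAA. A match is a stretch of letters and not a shown binding site. Of the 10 cytokines, 8 matched a RefSeq window. The windows of Il18 and Tgfb1 held none of the 4 motifs, which says only that these letters were not in these bases.

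In the GENCODE annotation of GRCm38, Il1rn lies at chr2:24336853-24351494 on the plus strand, and Il1a at chr2:129299610-129309972 and Il1b at chr2:129364570-129371139 on the minus strand. Osm, at chr11:4236420-4241026, and Lif, at chr11:4257557-4272514, are neighbours on the plus strand. Il6 lies at chr5:30013114-30019981, Il18 at chr9:50554827-50581840, Tgfb1 at chr7:25687002-25705077 and Il10 at chr1:131019845-131024974, all on the plus strand, and Tnf at chr17:35199381-35202007 on the minus strand. The counts are over annotated exons of these genes.

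Library totals were 40.2 to 61.5 mega-counts over exons in KO CM, 41.8 to 54.4 in KO control, 41.3 to 85.8 in WT CM and 45.2 to 82.1 in WT control. WT libraries 3 and 4 had the highest totals, 80.4 and 85.8 in CM and 81.8 and 82.1 in control medium. Ezh2 was at 24.6 to 28.9 counts per mega-count of the scaled library (CPM) in KO CM libraries, against 31.4 to 38.6 in WT CM, and at 18.2 to 18.8 in KO control, against 19.8 to 26.3 in WT control. Its exons of 81 and 85 bases, chosen after their values were seen, had 7.22 to 19.3% of the counts per base of the other Ezh2 exons in KO CM and 2.07 to 31.7% in KO control, against 94.0 to 143% in WT CM and 103 to 170% in WT control. WT libraries 3 and 4 of both media stood apart from the other 10 libraries in the shares of a gene's counts that its exons took, with scores of 0.404 to 0.443 on the first principal component, against -0.197 to -0.145. No KO library had such scores. Comparisons of KO with WT are therefore also given with WT libraries 1 and 2 only for the tested cytokines, but not for other single genes. All 10 macrophage markers, including Csf1r and Adgre1, were detected in every group.

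Of the 10 cytokines, 9 passed the filter on low counts, and Lif did not. In CM, Il1a and Osm rose and Tnf fell in both genotypes, and Il6 rose in WT. In KO macrophages, 2 of the 9 were called higher in CM, where 20.0% of all 13311 tested genes were, and 2 were called lower, where 18.2% of genes were. In WT macrophages, 3 of the 9 were called higher in CM, beside 19.3% of all genes, and 1 was called lower, beside 18.0%. These shares rest on 9 genes, and the median log2 fold change of the 9 was -0.09 in KO and -0.04 in WT, against -0.01 in both for all genes tested. Calls are at an adjusted p below 0.05 in edgeR's quasi-likelihood test over all 14 libraries, changes are log2 fold changes ± SE, and levels are CPM.

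**Figure D1:**
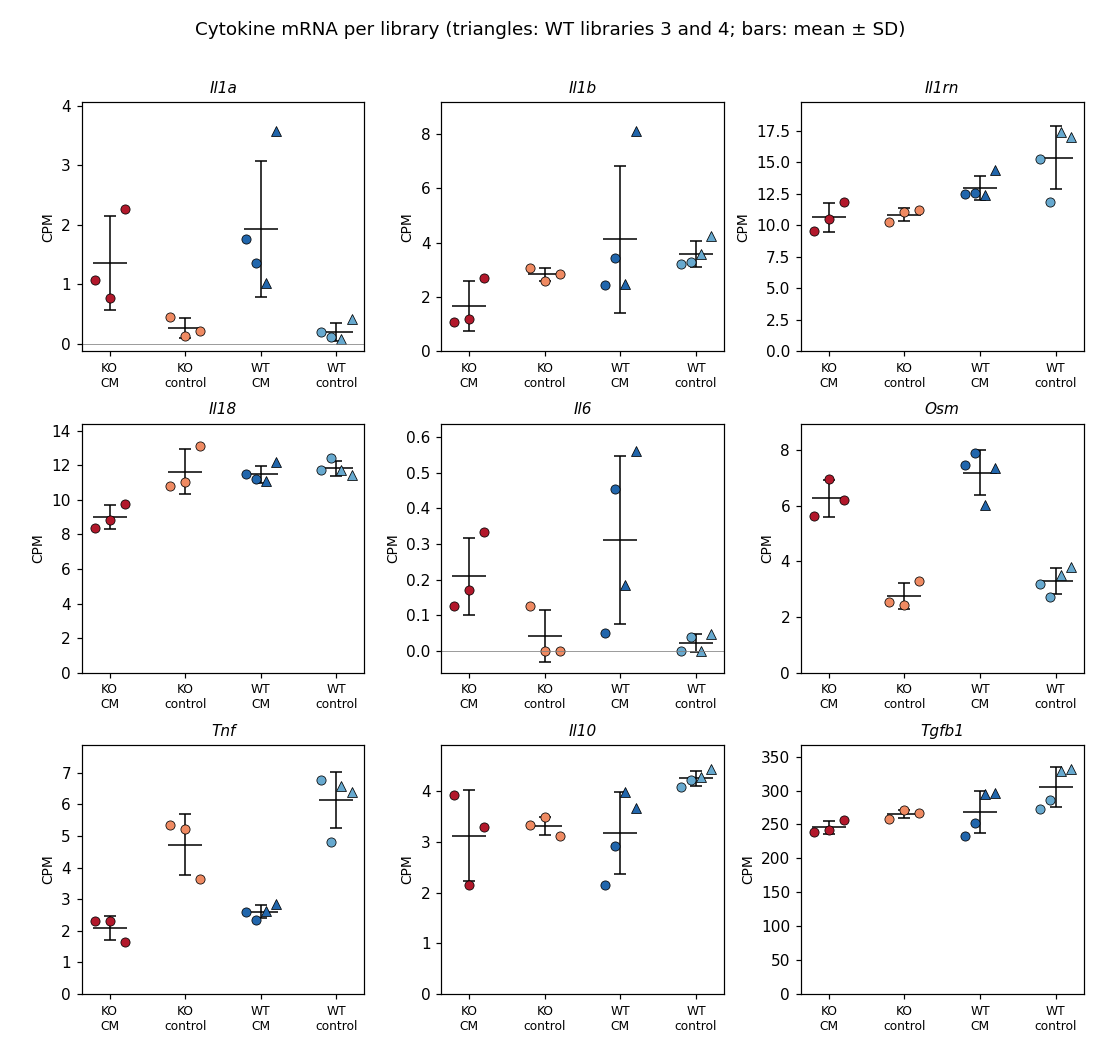
CPM of 9 cytokines in each of the 14 libraries, with KO CM, KO control, WT CM and WT control from left to right; horizontal bars are means and error bars SDs, and triangles are WT libraries 3 and 4. Osm in CM lay above control medium and Tnf below it in every library of both genotypes, while Il1a, Il1b and Il6 in WT CM spread widely, with WT CM library 4 highest.

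Il1a, the IL-1 receptor agonist that is active without inflammasome cleavage, was the most responsive of the IL-1 genes. It had 1.07, 0.766 and 2.26 CPM in KO CM libraries, against 0.455, 0.123 and 0.204 CPM in KO control. In WT CM it had 1.75, 1.36, 1.01 and 3.58 CPM, against 0.195, 0.117, 0.0729 and 0.417 CPM in WT control. The values in control medium rest on few counts, 7 to 25 a library in KO and 6 to 35 in WT. Every CM library was above every control library of its genotype, but the CM libraries of a genotype differed widely among themselves, with KO CM library 3 and WT CM library 4 the highest. Il1a rose in KO by 2.39 ± 0.65 (edgeR adjusted p = 0.00882) and in WT by 3.22 ± 0.56 (adjusted p = 0.000275). Without KO CM library 3 the change in KO was 1.79, with an adjusted p of 0.0630. In WT it was 3.30 in libraries 1 and 2 alone and 3.22 in libraries 3 and 4 alone. All 7 Il1a exons with counts had a higher mean CPM in CM than in control medium in both genotypes. The exon of 52 bases differed little in KO, at 0.0361 against 0.0318 CPM. The longest exon, of 1290 bases, took 23.8 to 69.4% of Il1a counts in KO CM libraries, against 11.1 to 14.3% in KO control. In WT it took 31.4 to 58.4% in CM, against 0 to 50% in control medium. In KO CM library 2 it held 25 of the 36 Il1a counts, so the rise there lay mostly in this exon.

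Il1b, the inflammasome-dependent agonist encoded near Il1a on chromosome 2, did not share this pattern. It had 1.09, 1.17 and 2.71 CPM in KO CM, against 3.07, 2.60 and 2.83 CPM in KO control, and 2.43, 3.43, 2.48 and 8.12 CPM in WT CM, against 3.21, 3.27, 3.56 and 4.24 CPM in WT control. The groups of the 2 media overlapped in both genotypes. The change in CM was -0.74 ± 0.43 in KO (edgeR adjusted p = 0.191) and 0.22 ± 0.34 in WT (adjusted p = 0.667). The WT value depended on CM library 4, without which it was -0.37, and without KO CM library 3 the KO value was -1.32, with an adjusted p of 0.0407. In CM, Il1b was at 1.66 ± 0.91 CPM in KO (SD, n = 3) and 4.11 ± 2.71 CPM in WT (SD, n = 4), a log2 difference of -1.30 ± 0.40 that did not pass in edgeR (adjusted p = 0.0792) and did in DESeq2 (-1.31, adjusted p = 0.0112). With WT libraries 1 and 2 only, it was -0.78 (edgeR adjusted p = 0.200). In control medium it was -0.34 ± 0.38 (adjusted p = 0.598), although the KO libraries lay below all WT libraries.

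Within each library, the ratio of Il1a to Il1b counts per exon base was 0.561 ± 0.110 in KO CM (SD, n = 3), against 0.0608 ± 0.0358 in KO control (SD, n = 3). It was 0.336 ± 0.106 in WT CM (SD, n = 4), against 0.0368 ± 0.0232 in WT control (SD, n = 4). The 2 IL-1 agonists therefore stood in a different proportion in CM in every library of both genotypes, with no overlap between media. The ratio of Il1b to Il1rn was 0.308 ± 0.135 in KO CM and 0.534 ± 0.069 in KO control, and 0.628 ± 0.356 in WT CM and 0.478 ± 0.068 in WT control. The KO CM ratios, 0.227 to 0.464, lay below the KO control ratios, 0.478 to 0.611, and in WT the media overlapped. WT CM library 4 had the highest ratio, 1.15, and was the 1 library with a ratio above 1. The other WT CM libraries lay within the spread of control medium or just below it. Because a fragment can count in several exons, a gene with many short exons, such as Il1b, gains in such ratios. On the longest exon of each gene, WT CM library 4 had 145 Il1b counts over 661 bases and 701 Il1rn counts over 2077 bases. There it had fewer Il1b than Il1rn counts per base.

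**Figure D2:**
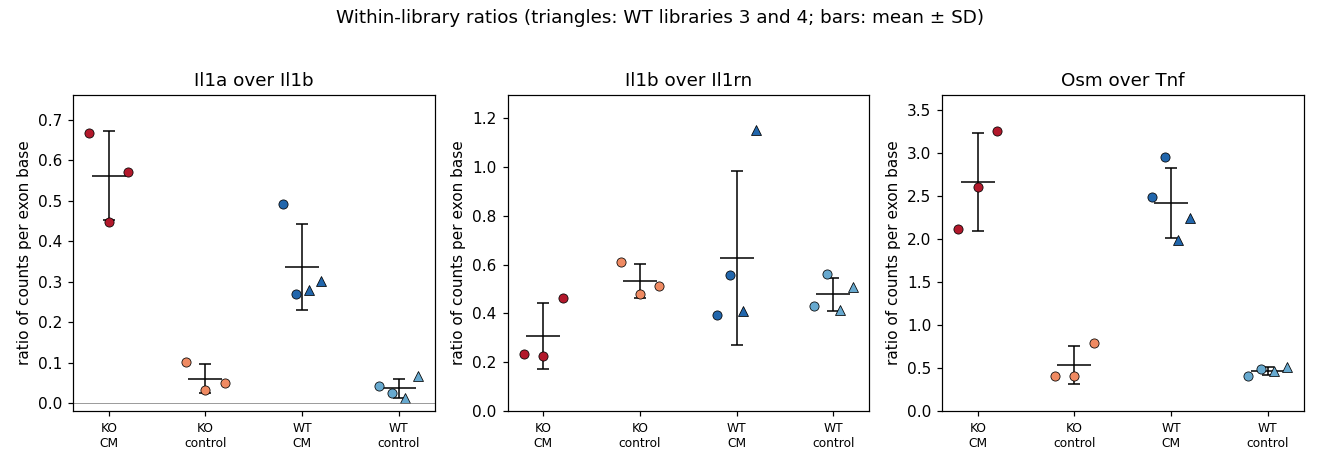
Ratios of counts per exon base between pairs of cytokines in each library, with KO CM, KO control, WT CM and WT control from left to right; horizontal bars are means and error bars SDs, and triangles are WT libraries 3 and 4. The Il1a to Il1b and the Osm to Tnf ratios of CM libraries lie above all control libraries, and the Il1b to Il1rn ratios of the 2 media overlap in WT but not in KO.

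Il1rn, which encodes the IL-1 receptor antagonist, had higher group means per exon base than both agonists and was lower in KO in control medium. It had 9.54, 10.5 and 11.9 CPM in KO CM and 10.2, 11.0 and 11.3 CPM in KO control, against 12.5, 12.5, 12.4 and 14.4 CPM in WT CM and 15.2, 11.9, 17.4 and 17.0 CPM in WT control. In each medium all 3 KO libraries lay below all 4 WT libraries. In control medium Il1rn fell in KO, with a log2 difference of -0.51 ± 0.12 (edgeR adjusted p = 0.0269), and the difference in CM was -0.28 ± 0.12 (adjusted p = 0.179). The control-medium difference was -0.32 (adjusted p = 0.165) with WT libraries 1 and 2 only. It missed the threshold without any 1 of the 3 KO control libraries (adjusted p = 0.108, 0.0942 and 0.0752) and without WT control library 3 (0.0849) or 4 (0.0808).

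Of the 7 Il1rn exons with counts, of which 1 contains another, 6 had a lower mean in KO in each medium. Il1rn transcripts can start at several first exons. The first exon behind the printed window, at position 24345291, had 10 to 25 counts a library, and the far upstream first exon, at 24336860, had 0 to 6. The exon behind the printed window was the exception in control medium, at a mean of 0.323 CPM in KO and 0.267 in WT. So the lower Il1rn of KO in control medium was not seen in this exon. The far upstream exon was the exception in CM, at 0.0517 CPM in KO and 0.0267 in WT. Another first exon, at 24345371, contains the exon at 24345520 that follows the other starts, and had 0 to 6 counts a library beyond those of the contained exon. The starts at 24336860 and 24345371 were thus close to undetected at this depth. CM in WT gave -0.25 ± 0.11 for Il1rn (adjusted p = 0.0881). It passed with each library number of each genotype as a block (-0.24, edgeR adjusted p = 0.0256).

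Il18, an inflammasome-dependent cytokine that macrophages make without stimulation, was lower in KO CM than in every other group. It had 8.37, 8.85 and 9.75 CPM in KO CM, against 10.8, 11.0 and 13.1 CPM in KO control. In WT it had 11.5, 11.2, 11.1 and 12.2 CPM in CM, against 11.7, 12.4, 11.7 and 11.5 CPM in control medium. Il18 fell in CM in KO, with a log2 change of -0.37 ± 0.09 (edgeR adjusted p = 0.00499), and was -0.04 ± 0.08 in WT (adjusted p = 0.733). In CM, the KO libraries were below all WT libraries, with a log2 difference of -0.35 ± 0.09 (adjusted p = 0.0324), and in control medium the difference was -0.02 ± 0.09 (adjusted p = 0.880).

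Both Il18 calls rest on the same 3 KO CM libraries. The response to CM did not differ between genotypes past the threshold (interaction -0.33 ± 0.12, edgeR adjusted p = 0.488). The KO difference in CM was -0.33 with WT libraries 1 and 2 only (adjusted p = 0.145), and missed the threshold without KO CM library 1 (0.129) or 2 (0.0893) and without WT CM library 1 (0.0529), 3 (0.0591) or 4 (0.101). Of the 8 Il18 exons with counts, 7 had a lower mean in KO than in WT in CM. On the most-counted exon alone, of 134 bases, the differences were -0.18 for CM in KO (adjusted p = 0.349) and -0.16 for KO in CM (adjusted p = 0.465).

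Among the gp130 ligands, Osm gave the clearest response. Oncostatin M is secreted by activated macrophages and acts on stromal cells and hepatocytes. Osm had 5.63, 6.95 and 6.23 CPM in KO CM, against 2.53, 2.42 and 3.28 CPM in KO control, and 7.47, 7.91, 6.03 and 7.37 CPM in WT CM, against 3.17, 2.72, 3.51 and 3.80 CPM in WT control. All CM libraries were above all control libraries, whatever the genotype. Osm rose by 1.20 ± 0.16 in KO (edgeR adjusted p = 2.02e-05) and by 1.12 ± 0.13 in WT (adjusted p = 6.58e-06). Within WT it was 1.38 in libraries 1 and 2 and 0.88 in libraries 3 and 4. KO and WT differed by -0.20 ± 0.14 in CM (adjusted p = 0.418) and by -0.28 ± 0.15 in control medium (adjusted p = 0.254).

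Il6, the best known gp130 ligand of inflamed macrophages, was close to undetected. Its counts were 5, 8 and 20 in KO CM, against 7, 0 and 0 in KO control, and 2, 21, 14 and 46 in WT CM, against 0, 2, 0 and 4 in WT control. The WT groups did not overlap in CPM, but WT CM library 1, at 0.0501 CPM, was barely above WT control library 4, at 0.0476 CPM. The KO groups overlapped only through KO control library 1. The change in KO was 2.23 ± 1.07 (edgeR adjusted p = 0.117), and in WT Il6 rose by 3.71 ± 0.94 (adjusted p = 0.00532). Pooled over libraries, CPM were 5.02 times those of control medium in KO CM (95% counting interval 2.18 to 13.4) and 14.9 times in WT CM (6.57 to 41.8). These intervals cover counting error only and take each exon count as a separate fragment. A fragment can count in several exons, so they are too narrow even for counting error. In KO CM library 2, the 8 counts were 4 in each of the exons of 537 and 595 bases. In WT libraries 1 and 2 alone the change was 3.50, with an adjusted p of 0.0750, and in libraries 3 and 4 alone it was 3.86 (adjusted p = 0.0121). Without KO control library 1 the change in KO was 6.67 (adjusted p = 0.0233), a fit against libraries with 0 counts.

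Lif, the third gp130 ligand, had 0, 0 and 3 counts in KO CM and 2, 0 and 0 in KO control. In WT CM it had 2, 5, 1 and 5 counts, against 0 in each WT control library. With WT control set at 3 counts over the group, WT CM was 4.67-fold higher, a ratio that takes its 13 counts as exact. Lif did not pass the filter on low counts. With no filter, over 18364 genes, it was called higher in CM in WT (4.75, edgeR adjusted p = 0.0275, a fit against libraries with 0 counts) and not in KO (0.53, adjusted p = 0.891).

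Tnf, the cytokine that signals from the cell surface and after shedding by ADAM17, fell in CM in both genotypes. It had 2.31, 2.32 and 1.66 CPM in KO CM, against 5.33, 5.23 and 3.62 CPM in KO control. In WT CM it had 2.61, 2.33, 2.63 and 2.85 CPM, against 6.75, 4.81, 6.57 and 6.39 CPM in WT control. The highest CM library was below the lowest control library in both genotypes. Tnf fell by 1.19 ± 0.18 in KO (edgeR adjusted p = 0.000101) and by 1.23 ± 0.15 in WT (adjusted p = 1.05e-05), and in WT the value was -1.23 in libraries 1 and 2 alone and -1.24 in libraries 3 and 4 alone. All 4 Tnf exons with counts had a lower mean in CM in both genotypes. KO and WT differed by -0.33 ± 0.18 in CM (adjusted p = 0.273) and by -0.37 ± 0.16 in control medium (adjusted p = 0.169).

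Osm and Tnf thus moved in opposite directions in the same libraries. The ratio of Osm to Tnf counts per exon base was 2.66 ± 0.57 in KO CM (SD, n = 3), against 0.533 ± 0.219 in KO control (SD, n = 3). It was 2.41 ± 0.41 in WT CM (SD, n = 4), against 0.469 ± 0.046 in WT control (SD, n = 4). Per exon base, Osm exceeded Tnf in every CM library and was below it in every control library.

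**Figure D3:**
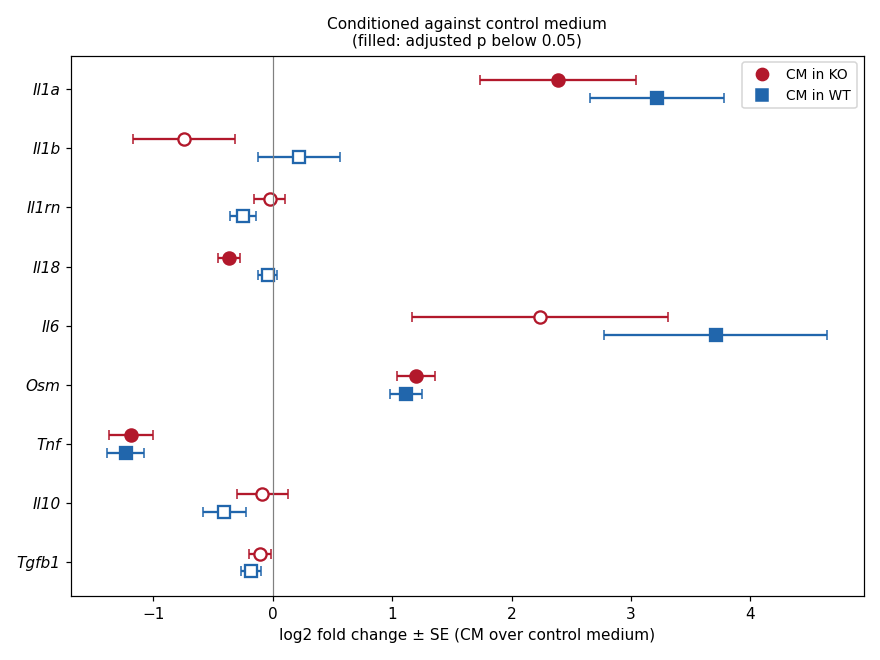
Log2 fold change ± SE of each cytokine in CM over control medium, circles for KO and squares for WT; filled symbols have an edgeR adjusted p below 0.05. Il1a and Osm lie above 0 and Tnf below 0 in both genotypes, and the other symbols are open in at least 1 genotype.

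Neither regulatory cytokine was called in any comparison of all libraries. Il10, which suppresses inflammatory gene expression, had 3.93, 2.15 and 3.30 CPM in KO CM, against 3.33, 3.49 and 3.12 CPM in KO control, and 2.16, 2.93, 3.98 and 3.67 CPM in WT CM, against 4.08, 4.23, 4.28 and 4.44 CPM in WT control. The WT CM libraries lay below all WT control libraries and the KO groups overlapped. The change in CM was -0.09 ± 0.22 in KO (edgeR adjusted p = 0.786) and -0.40 ± 0.18 in WT (adjusted p = 0.0965). In WT it was -0.71 in libraries 1 and 2 (adjusted p = 0.0337) and -0.19 in libraries 3 and 4 (adjusted p = 0.515). The WT change passed with each library number of each genotype as a block (-0.42, edgeR adjusted p = 0.0368).

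Tgfb1 encodes a growth factor that is secreted in a latent form and restrains inflammation. It had 238.9, 242.6 and 256.8 CPM in KO CM, against 258.5, 271.4 and 266.5 CPM in KO control, and 232.9, 252.0, 294.3 and 295.8 CPM in WT CM, against 272.7, 286.6, 329.0 and 332.1 CPM in WT control. In WT, libraries 3 and 4 were above libraries 1 and 2 in each medium. The change in CM was -0.11 ± 0.09 in KO (edgeR adjusted p = 0.391) and -0.18 ± 0.08 in WT (adjusted p = 0.0903). In WT it passed with each library number of each genotype as a block (-0.18, edgeR adjusted p = 0.000264). In KO it passed in that fit (-0.11, adjusted p = 0.0271), with a term for WT libraries 3 and 4 (-0.11, adjusted p = 0.0402), and on the most-counted exon alone, where it was -0.32 (adjusted p = 0.000373). KO libraries of the same number did not deviate together between media, so the block has no such basis in KO. In bulk RNA, fewer cells of a type and less RNA per cell cannot be told apart for any of these differences.

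Between genotypes, the calls were few. In CM, 1 of the 9 tested cytokines, Il18, was lower in KO, beside 1.49% of all genes, and 0 were higher, beside 3.10%. In control medium, 1 of the 9, Il1rn, was lower in KO, beside 2.50% of all genes, and 0 were higher, beside 2.82%. The log2 differences of all 9 were below 0 in CM and those of 7 in control medium, with medians of -0.33 and -0.28, while 49.8% of all genes were below 0 in each medium and the medians of all genes were 0.000946 and 0.00116. With WT libraries 1 and 2 only, 7 of the 9 were below 0 in each medium, and the medians were -0.24 and -0.10. No cytokine was called for a difference in the response to CM between genotypes, beside 0% of all genes in edgeR. By unadjusted p, 1050 of 13311 genes, 7.89%, were below 0.05 in that comparison, and DESeq2 called 84 genes and none of the cytokines.

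**Figure D4:**
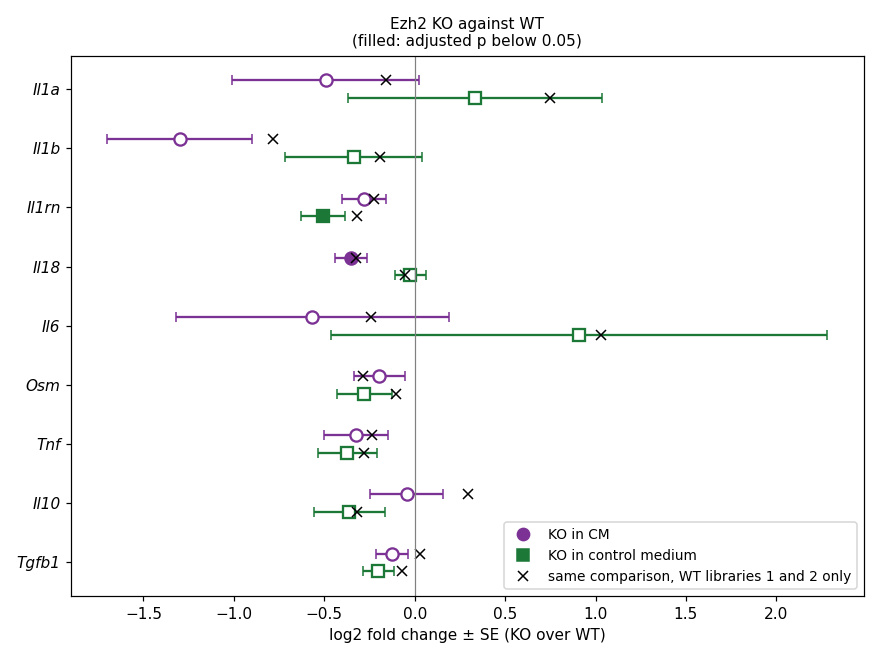
Log2 fold change ± SE of each cytokine in KO over WT, circles in CM and squares in control medium; crosses are the same comparisons with WT libraries 1 and 2 only, and filled symbols have an edgeR adjusted p below 0.05. The filled symbols are Il18 in CM and Il1rn in control medium, and the crosses of Il10 and Tgfb1 in CM lie on the other side of 0.

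Set per kilobase of exon, Tgfb1 was the most abundant of the 10 mRNAs in every group, with means of 113 CPM per kb in KO CM, 122 in KO control, 124 in WT CM and 140 in WT control. Il18 came next, at 6.92, 8.96, 8.85 and 9.11 CPM per kb in the same groups, and Il1rn after it, at 3.88, 3.95, 4.72 and 5.61. By this measure, the libraries of these 3 genes did not overlap with each other or with those of the next gene in any group, except Il1rn and Osm in KO CM. The measure favours genes with many short exons, because a fragment can count in several exons. The Il18 exon of 12 bases alone had 1039 counts. On the longest exons in WT CM, Il1rn had a mean of 7.07 CPM over 2077 bases and Osm 5.44 CPM over 1641 bases. Per base these 2 were close. Osm stood in the fourth place in CM, at 3.29 CPM per kb in KO and 3.77 in WT, and in the seventh place in control medium, at 1.44 in KO and 1.73 in WT. Tnf held the fourth place in control medium, at 2.86 in KO and 3.71 in WT. Tnf, Il10 and Il1b lay between, and neighbours among them overlapped in most groups. Il1a, Il6 and Lif were the lowest in every group, and in KO control their libraries overlapped.

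The receptors and regulators of each cytokine were taken from lists by function. Their differences between genotypes are from the fit of all libraries and are not given with WT libraries 1 and 2 only. Of 21 tested genes that receive, block or process IL-1 family cytokines, 5 were higher and 3 lower in CM in KO, and 5 higher and 4 lower in WT, near the shares of all tested genes (20.0% higher and 18.2% lower in KO, 19.3% and 18.0% in WT). Pycard, the inflammasome adaptor, rose by 1.13 ± 0.08 in KO and 1.13 ± 0.07 in WT (edgeR adjusted p = 1.10e-08 and 1.65e-09). Il1rl2, the IL-36 receptor, rose by 1.61 ± 0.18 and 1.66 ± 0.15. Myd88, the adaptor of IL-1 and IL-18 receptors, rose by 0.51 ± 0.07 in KO and 0.39 ± 0.06 in WT, and its kinase partner Irak4 by 0.27 ± 0.05 and 0.35 ± 0.04. Between genotypes, 1 gene of this list was higher and 1 lower in KO in each medium. These 2, chosen after their values were seen, were Il18rap, an IL-18 receptor subunit, at 0.54 in CM and 0.44 in control medium, and Nlrp3, the inflammasome sensor, at -0.36 in CM (adjusted p = 0.00306) and -0.31 in control medium (adjusted p = 0.00746).

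Of 11 tested genes of gp130 reception and signalling, 4 were higher and 2 lower in CM in KO (all genes 20.0% and 18.2%), and 3 higher and 4 lower in WT (all genes 19.3% and 18.0%), and 0 differed between genotypes in either medium. Socs3, the feedback inhibitor of gp130 and STAT3 signalling, had 28.7 ± 2.7 CPM in KO CM, against 3.46 ± 0.18 CPM in KO control (SD, n = 3 each), and 34.2 ± 7.9 CPM in WT CM, against 4.39 ± 0.99 CPM in WT control (SD, n = 4 each). It rose by 3.05 ± 0.20 in KO and 2.95 ± 0.17 in WT (edgeR adjusted p = 9.91e-09 and 1.60e-09). Stat3 rose by 0.58 ± 0.07 in KO and 0.52 ± 0.06 in WT, and Lifr, the LIF receptor subunit, by 0.61 ± 0.07 in KO and 0.65 ± 0.06 in WT. Osmr, the subunit that binds oncostatin M with gp130, had 0 counts in all 14 libraries.

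Of 12 tested genes that shed, receive or relay TNF, 4 were higher and 6 lower in CM in KO (all genes 20.0% and 18.2%), and 3 higher and 6 lower in WT (all genes 19.3% and 18.0%), and 0 differed between genotypes in either medium. Rhbdf1 and Rhbdf2 encode the iRhoms that carry ADAM17 to the cell surface. Rhbdf1 fell by 2.24 ± 0.25 in KO and 1.97 ± 0.22 in WT on the log2 scale, while Rhbdf2 rose by 0.44 ± 0.08 in KO and 0.39 ± 0.07 in WT. Rhbdf1 was the much less abundant of the 2. Its means were 0.717 CPM in KO CM, 3.39 in KO control, 0.640 in WT CM and 2.46 in WT control. Those of Rhbdf2 were 66.9, 49.2, 61.1 and 46.7 CPM in the same groups. Adam17, the protease that sheds TNF, fell by 0.34 ± 0.06 in KO and 0.37 ± 0.05 in WT. Tnfaip3, an NF-κB-induced inhibitor of NF-κB, fell by 0.56 ± 0.09 in KO and 0.48 ± 0.08 in WT.

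Of 10 tested genes of the IL-10 receptor and response, 6 were higher and 3 lower in CM in each genotype, where 20.0% and 18.2% of all genes were in KO and 19.3% and 18.0% in WT. Il4ra, the IL-4 receptor chain, rose by 1.95 ± 0.06 in KO and 1.89 ± 0.05 in WT, Nfil3 by 1.77 ± 0.13 in KO and 1.41 ± 0.11 in WT, and Sbno2 by 1.11 ± 0.10 in KO and 1.11 ± 0.09 in WT. Both Nfil3 and Sbno2 are IL-10-induced regulators of transcription. Il10ra and Prdm1, named after their values were seen, had lower means in CM. Il10ra, an IL-10 receptor chain, had 146 CPM in KO CM, against 257 in KO control, and 150 in WT CM, against 242 in WT control. Prdm1 had 9.89 against 28.6 CPM in KO, and 10.4 against 26.5 in WT. Nfil3 was the 1 gene of this list that differed between genotypes, which stood at -0.47 ± 0.12 in control medium (KO over WT, edgeR adjusted p = 0.0375), and 0 differed in CM. Socs3 and Stat3 are in this list and in that of gp130, so the 2 counts are not separate.

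Of 21 tested genes that activate or relay TGF-β, out of 25 listed, 7 were higher and 7 lower in CM in KO, where 20.0% and 18.2% of all genes were, and 4 higher and 6 lower in WT, where 19.3% and 18.0% were. Tgfbr1, the type I receptor kinase, fell by 1.48 ± 0.06 in KO and 1.28 ± 0.05 in WT. Tgfbr2, named after its values were seen, had higher means in CM than in control medium. These were 264 against 154 CPM in KO and 245 against 154 CPM in WT. Skil and Tgif1, which repress Smad-dependent transcription, fell by 1.66 ± 0.09 and 0.96 ± 0.06 in KO, and by 1.57 ± 0.08 and 0.93 ± 0.05 in WT. Ltbp3, a carrier of latent TGF-β, rose by 0.72 ± 0.08 in KO and 0.78 ± 0.07 in WT. Between genotypes, 2 genes were lower in KO in CM, named after their values were seen: Thbs1, an activator of latent TGF-β, at -1.25, and the inhibitory Smad gene Smad7, at -0.68. Thbs1 spread widely in WT CM, at 124 ± 41 CPM (SD, n = 4), against 52.1 ± 2.4 CPM in KO CM (SD, n = 3). In control medium 0 of the 21 differed.

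Of 13 tested regulators of cytokine mRNA decay, 2 were higher and 1 lower in CM in KO, and 2 higher and 3 lower in WT, and 0 differed between genotypes. Over all genes 20.0% were higher and 18.2% lower in KO, and 19.3% and 18.0% in WT. Auh rose by 0.40 ± 0.09 in KO and 0.50 ± 0.08 in WT, and Khsrp by 0.19 ± 0.06 in KO and 0.22 ± 0.06 in WT. Zfp36l2, of the tristetraprolin family, fell by 0.57 ± 0.16 in KO and 0.38 ± 0.14 in WT. Zc3h12a, the endonuclease that cuts Il6 mRNA, was at -0.08 ± 0.07 in KO (edgeR adjusted p = 0.391) and fell by 0.20 ± 0.06 in WT (adjusted p = 0.0157).

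Of 31 other cytokine genes listed, 30 were in the table and 8 passed the filter. In CM, 2 of the 8 were higher and 4 lower in KO (all genes 20.0% and 18.2%), and 1 higher and 3 lower in WT (all genes 19.3% and 18.0%). Il16, a T cell attractant, fell by 0.66 ± 0.08 in KO and 0.43 ± 0.07 in WT, Il15 by 0.37 ± 0.11 in KO and 0.46 ± 0.09 in WT, and Ebi3, a subunit of IL-27, by 0.27 ± 0.09 in KO and 0.28 ± 0.08 in WT. Csf1, the macrophage growth factor, had 5.61 ± 0.28 CPM in KO CM, against 8.39 ± 0.34 CPM in WT CM, and 4.24 ± 0.56 CPM in KO control, against 7.14 ± 0.23 CPM in WT control (SD, n = 3 in KO and 4 in WT). It was lower in KO, both in CM (-0.58 ± 0.10, edgeR adjusted p = 0.00337) and in control medium (-0.75 ± 0.10, adjusted p = 0.000487). With Il16 in CM (-0.32 ± 0.08, adjusted p = 0.0308), that made 2 of the 8 lower in KO in CM and 1 in control medium, and 0 higher.

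Of the marker lists of other cell types, that of monocytes moved most with the medium. The summed CPM of 6 monocyte markers was 282 to 326 in KO CM, against 49.1 to 55.9 in KO control, and 226 to 293 in WT CM, against 43.8 to 55.7 in WT control. In each genotype 5 of the 6 were called higher in CM, beside 20.0% of all genes in KO and 19.3% in WT. The monocyte marker Ly6c2 stayed low, at a mean of 0.342 CPM in KO CM, against 0.250 in KO control. In WT its mean was lower in CM, at 0.167 CPM, against 0.393 in control medium. Of the 9 hepatoma and hepatocyte markers, Alb, the defining marker, had 0 counts in all groups, while Apoa2 averaged 3.66 CPM in KO CM, 4.02 in KO control, 3.55 in WT CM and 3.12 in WT control, and Afp 2.15, 2.53, 2.17 and 1.68 CPM in the same groups. The whole list summed to 4.33 to 7.44 CPM over the 14 libraries. The sum of 10 neutrophil markers was 3.25 to 5.51 CPM in KO CM, against 1.38 to 4.03 in KO control, and 4.03 to 5.79 in WT CM, against 1.30 to 2.50 in WT control. The gap in that sum came from Prtn3, at a mean of 3.23 CPM in KO CM, against 0.0121 in KO control, and 3.45 in WT CM, against 0.00899 in WT control. S100a8, S100a9, Ltf and Ngp had lower means in CM in both genotypes. Ly6g, the defining neutrophil marker, had 0 counts in KO CM, KO control and WT CM. KO CM library 3 and WT CM library 4, which had the highest Il1a, Il1b and Il6 of their groups, had the lowest neutrophil sums of those groups, 3.25 and 4.03 CPM. Their monocyte sums were 282 CPM, the lowest of KO CM, and 293 CPM, the highest of WT CM. The part of monocyte markers in the cytokine differences was not tested. The sum of the 10 macrophage markers differed with genotype, at 20280 to 21083 CPM in KO CM, against 30316 to 33270 in WT CM, and 21878 to 22575 in KO control, against 30781 to 36179 in WT control. Most of that gap was Lyz2, the lysozyme M gene whose promoter drives Cre, at a mean of 9478 CPM in KO CM, against 20458 in WT CM, and 10221 in KO control, against 21891 in WT control. Between media, 3 of the 10 macrophage markers were called higher and 3 lower in CM in each genotype. All genes were at 20.0% and 18.2% in KO, and at 19.3% and 18.0% in WT. Mean Adgre1 was 1900 CPM in KO CM, against 3687 in KO control, and 2098 in WT CM, against 3382 in WT control. Mean Csf1r was 3415 against 5077 CPM in KO, and 3639 against 4984 in WT. Mean Itgam went the other way, at 3096 against 1142 CPM in KO and 2993 against 1213 in WT. T and NK cell markers summed to 0.474 CPM or less in each library.

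Over the 14 libraries, the genes most like each cytokine in log2(CPM + 1) were taken from 9557 genes whose mean reached 4 CPM, and the correlations describe libraries that share medium and genotype, and the split of WT libraries 3 and 4 from the rest. Osm was most like Nabp1 (Pearson r = 0.981), Stt3a (0.977) and Tma16 (0.976). Tnf was most like D5Ertd579e (0.976), Trim12c (0.971) and Ptprc (0.967), and Tgfb1 most like Selenop (0.982), Rpgrip1 (0.972) and Tab2 (0.965). For Il1a these were Bnip3 (0.918), Acadsb (0.905) and C1rb (0.902), for Il1rn Srsf11 (0.939), Esf1 (0.927) and Itsn2 (0.919), and for Il6 Gorab (0.902), Wfs1 (0.854) and Sorbs3 (0.841). The closest genes were less alike for Il10, with Srp54c (0.876), Uri1 (0.872) and Maml1 (0.869), for Il18, with Slc10a3 (0.862), Tnfsfm13 (0.857) and Tbc1d32 (0.857), and for Il1b, with Ttc30b (0.841), Sypl (0.810) and Tgm2 (0.805).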

How the data were processed

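The authors deposited raw counts per exon of transcript models. The submitters' processing notes name HISAT2 and the mm10 build. The HISAT2 version, the counting tool, the annotation and the strand setting are not given in the sources used here, so reads of antisense genes cannot be told apart. Per the labels' protocols, a stranded mRNA kit and paired reads of 150 bp were used. An exon shared by transcript models is listed for each, so 196941 of 427386 entries repeat another one and carry 48.6% of all counts. These were dropped, 230445 distinct exons were summed per gene, and a fragment over several exons, or over exons that overlap, can count in each. No column of other samples was present.

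The quasi-likelihood F test of edgeR 4.0.16 (R 4.3.3) was run on these counts after TMM scaling and the filterByExpr filter (at least 10 counts in enough libraries and 15 in all), with a mean per group over all 14 libraries and Benjamini-Hochberg adjustment over 13311 genes. CPM are counts per mega-count of the TMM-scaled library total. Intervals are exact and, like bounds against 3 counts, cover counting error only.

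The members, lists and rules were chosen with earlier results of these data known. All members are named, up to 4 genes of each list with the smallest p in any comparison, and the 3 genes most like each member, except 1 list gene that is not reported here. Alternatives were DESeq2 1.42.0, other scalings, filters and exon sums, only the groups compared, blocks by replicate number, a term for WT libraries 3 and 4, subsets of WT libraries and leaving out each library, for the members only. Libraries of the same number deviated together between media in WT (r = 0.583 to 0.728, all above the limit of 0.1). They did not in KO (-0.0768 to 0.0904). The rule was met in WT but cannot tell pairing by number from the split of WT libraries 3 and 4 from the rest. Pairs of different WT numbers on the same side of that split reached 0.690, and pairs across it went down to -0.686.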

Additional observations from a re-analysis of the deposited data

Results flagged for a closer look

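Il1rn in WT CM library 4 stood apart from the other libraries of its group. It had 14.4 CPM, against 12.4 to 12.5 CPM in the other 3 WT CM libraries, and the gap was 0.922 of the whole range of the group, above Dixon's 95% critical value for 4 libraries. Of the 19 sets of 4 libraries examined, with 10 cytokines in WT CM and WT control and 1 set of zeros left out, this was the only 1 past that value, and chance gives about 1 in 20. The same library also had the highest Il1a, Il1b and Il6 CPM of its group.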

How the results depend on the processing

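The falls of Tnf and the rises of Osm in CM, in both genotypes, and the rise of Il1a in WT kept their direction and call under every alternative in which the gene was tested. With library totals alone the median of all genes moved by -0.107 for CM in KO. The number of cytokines called for CM in KO was 7 with the replicate block nested in genotype and 4 to 5 when a library was left out. For CM in WT it was 7 with that replicate block, with library totals alone and with a term for WT libraries 3 and 4, 2 with a mean of 4 CPM or more, which leaves fewer of them to test, and 3 to 6 when a library was left out. For KO in CM it was 2 with DESeq2, 0 with only the groups compared, with a replicate block shared by all groups, with WT libraries 1 and 2 only and on the most-counted exon, and 0 to 1 with a library left out. For KO in control medium it was 0 with only the groups compared and with WT libraries 1 and 2 only, and 0 to 1 with a library left out. Genes called for KO in CM, 611, were 1219 with DESeq2, 923 with the term for WT libraries 3 and 4 and 217 to 721 with a library left out. Those for KO in control medium, 708, were 1501 with DESeq2, 283 with only the groups compared, 385 on the most-counted exon and 224 to 1769 with a library left out, 1769 without WT control library 2. The interaction gave 84 genes with DESeq2, 205 with the nested replicate block, 11 with WT libraries 1 and 2 only, 164 with the term for WT libraries 3 and 4 and 0 to 2 with a library left out. The cause of these shifts was not tested.

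Log2 changes that turned direction were none of them called in the fit of all libraries. On the most-counted exon these were Il1rn for CM in KO (0.0334), Il1b for CM in WT (-0.0570), and Il1a (-0.24) and Tgfb1 (0.0483) for KO in control medium, and Tgfb1 for the interaction (-0.18). With WT libraries 1 and 2 only they were Il1b for CM in WT (-0.14), Il10 (0.30) and Tgfb1 (0.0289) for KO in CM, and Osm for the interaction (-0.18), and with WT libraries 3 and 4 only Il18 for CM in WT (0.00756). With the replicate block shared by all groups they were Il1a (0.0425), Il6 (0.0378) and Il10 (0.00342) for KO in CM. With the term for WT libraries 3 and 4 they were Il10 (0.13) and Tgfb1 (0.0111) for KO in CM, and with library totals alone Il18 for KO in control medium (0.0253). With a library left out, ranges crossed 0 for CM in KO of Il1rn (-0.11 to 0.0477) and Il10 (-0.27 to 0.12) and for CM in WT of Il1b (-0.37 to 0.40). They did for KO in CM of Il1a (-1.09 to 0.0202) and Il10 (-0.23 to 0.17), and for KO in control medium of Il1a (-0.37 to 1.11), Il18 (-0.12 to 0.0275) and Il6 (-3.53 to 1.79). For the interaction they did for Il6 (-2.35 to 2.96), Osm (-0.000916 to 0.23) and Tnf (-0.11 to 0.20). The depth limits Il6 and Lif, with 46 counts or fewer in each library. It also limits Il1a in control medium, with 7 to 25 counts a library in KO and 6 to 35 in WT.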
